A study of Mus musculus with 12 samples.

Results

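The genes described here encode serum response factor (Srf) and 9 proteins that build focal adhesions or tie them to actin: the LIM-only proteins Fhl1 and Fhl2, the adhesion linkers Vcl, Tln1, Zyx and Pxn, and the actin crosslinkers Flna, Actn1 and Actn4. They were chosen by symbol, as known focal adhesion genes and targets of serum response factor, and all 10 were found among the 55822 gene identifiers of the count table. These genes and the lists below were chosen with earlier results of these data known. Their shares beside those of all genes are therefore no test. The 12 libraries, 4 in each of 3 groups, hold RNA of aortic smooth muscle cells taken from mice, cells whose contraction sets the width of arteries. In the IFNγ/LPS CM group the cells received conditioned medium (CM) of bone marrow-derived macrophages that had been primed overnight with 20 ng/mL interferon gamma, stimulated for 4 hours with 100 ng/mL lipopolysaccharide and washed. In the naive CM group the medium came from macrophages without that stimulation. In both, the cells had first been starved for 48 hours in 0.3% serum and then stayed for 24 hours in the conditioned medium, made with 0.3% serum and 10 ng/mL of the macrophage growth factor M-CSF. The regular medium group was kept in growth medium whose serum content is not given in the sources used here, and neither is whether these cells were starved. Strain, age and number of animals are not given either.

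The titles call the libraries biological replicates but do not give the animals or cultures behind them, so p-values measure only the spread between these libraries, which may be technical. Totals of estimated counts were 40270540 to 44607657 in IFNγ/LPS CM, 28542613 to 56323683 in naive CM and 28097496 to 61493375 in regular medium. The table's columns name the conditioned media M1 and M0, which were read as IFNγ/LPS and naive macrophages, the usual meaning of these names, and every direction below rests on that reading. Of 8 smooth muscle markers all had counts in each group, and their sums were 116 to 119 CPM (counts per 1000000 after scaling) in IFNγ/LPS CM, 302 to 318 CPM in naive CM and 334 to 417 CPM in regular medium. By the test used below, 6 of the 8 were lower in IFNγ/LPS CM than in naive CM and none was higher. Of all genes tested, 35.8% were lower and 36.1% higher. Most of the sum came from Acta2, at 77.3 CPM in IFNγ/LPS CM, 220 CPM in naive CM and 280 CPM in regular medium, and from Smtn, at 37.4 CPM in IFNγ/LPS CM, 65.8 CPM in naive CM and 45.7 CPM in regular medium. The contractile genes Myh11 and Cnn1 and the filament gene Des were under 1 CPM on average in each group.

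Focal adhesions are the sites where integrins hold the matrix outside and actin bundles inside. Talin binds the integrin tails, vinculin reinforces the link to actin under tension, paxillin and zyxin are scaffolds, and filamin and alpha-actinin crosslink actin filaments. Serum response factor binds CArG boxes in promoters and works with partners. Myocardin and the myocardin-related factors, of which the latter are held back by unpolymerised actin, drive contractile and cytoskeletal genes. The ternary complex factors of the Elk family drive immediate early genes. Many focal adhesion genes are among the known targets of serum response factor, and Srf is a target of its own protein.

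Promoters of the genes with a CArG box are shown first, since serum response factor binds this box. Windows from 250 bases before to 50 bases after each RefSeq start (GRCm38.p6) were searched, and the pattern reads alike on both strands. Of the 10 genes 9 had an entry, and 4 of these, Srf, Vcl, Fhl1 and Fhl2, held a perfect box. Among all 27025 genes with a window 488 (1.81%) held it, and of 32851 windows 535 (1.63%). The 10 genes were chosen partly as known targets of serum response factor, so their share beside that of all genes is no test. Srf had 2 boxes, at 82 to 73 and 62 to 53 bases before its start; 6 of all windows held 2 or more. The Vcl box began 227 bases before the start, and the Fhl1 box ended 93 bases before 1 of its 2 RefSeq starts. Fhl2 had a box before each of its 2 RefSeq starts, at 96 to 87 and at 31 to 22 bases. In the GENCODE M21 annotation Fhl1 begins farther upstream, at 56731787, and so does Fhl2, at 43196984 on the minus strand. The Fhl1 and Fhl2 boxes thus lie within the annotated genes and not before every start. The stretches printed are 100 bases at chr17:46556180-46556279 (minus strand), chr14:20929148-20929247 (plus strand), chrX:56779536-56779635 (plus strand) and chr1:43163962-43164061 (minus strand), and 30 bases at chr1:43196838-43196867 (minus strand). The last was cut to 30 bases because 100 bases there would have touched an annotated exon. Sequences run 5′ to 3′ and capitals mark the CArG boxes.
Srf: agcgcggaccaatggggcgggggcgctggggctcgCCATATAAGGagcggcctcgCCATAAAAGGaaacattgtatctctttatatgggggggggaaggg
Vcl: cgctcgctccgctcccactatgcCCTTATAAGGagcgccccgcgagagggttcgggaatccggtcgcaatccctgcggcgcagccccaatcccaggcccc
Fhl1: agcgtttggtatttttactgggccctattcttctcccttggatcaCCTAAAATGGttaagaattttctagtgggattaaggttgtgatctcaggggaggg
Fhl2, distal start: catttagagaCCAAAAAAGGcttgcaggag
Fhl2, second start: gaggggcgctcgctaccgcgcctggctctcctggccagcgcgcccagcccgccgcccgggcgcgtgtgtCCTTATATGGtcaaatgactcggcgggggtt
No perfect box was found in the windows of Zyx, Tln1, Flna, Actn1 and Actn4, which says only that these letters are not in those windows. The hexamer CATTCC, the core of the MCAT element bound by TEAD factors, was found on either strand in 3 of the 9 genes (Vcl, Flna and Actn4), against 16.6% of all genes. The counts are per gene and do not tell which start was used. A match describes the sequence and does not show binding.

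The first comparison asks what medium of IFNγ/LPS-treated macrophages did to these genes relative to medium of naive macrophages. In it 7 of the 10 genes fell, none rose, and Srf, Actn4 and Pxn did not pass the test. Fhl1 fell 10.1-fold, Zyx 2.46-fold, Vcl 2.02-fold and Fhl2 2.00-fold, while Flna, Actn1 and Tln1 fell 1.30- to 1.39-fold. Over all 16140 genes tested, 71.9% were called in either direction and 35.8% were called lower (edgeR quasi-likelihood test, Benjamini-Hochberg adjusted p under 0.05), and 15% were called and at least 2-fold lower, against 3 of the 10 genes here (Fhl1, Zyx and Vcl), with Fhl2 just short of 2-fold. The median log2 fold change was -0.48 for the 10 genes and 0.00 for all genes tested. With library totals in place of TMM scaling, 9 of the 10 were called lower, and the calls over all genes split into 3279 higher and 9371 lower, in place of 5830 and 5781. In the same 7 genes every IFNγ/LPS CM library lay below every naive CM library, as in 34.6% of all genes, and 69.5% of all genes did not overlap in either direction. Before TMM scaling the 10 genes together took 0.236 to 0.253% of all counts in IFNγ/LPS CM and 0.560 to 0.570% in naive CM. In regular medium they took 0.611 to 0.668%, and these values do not overlap between groups. Genes with many counts weigh most in this share. Flna held 222076 counts in IFNγ/LPS CM and 436383 in naive CM, and Fhl1 held 15892 and 228524.

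**Figure D1:**
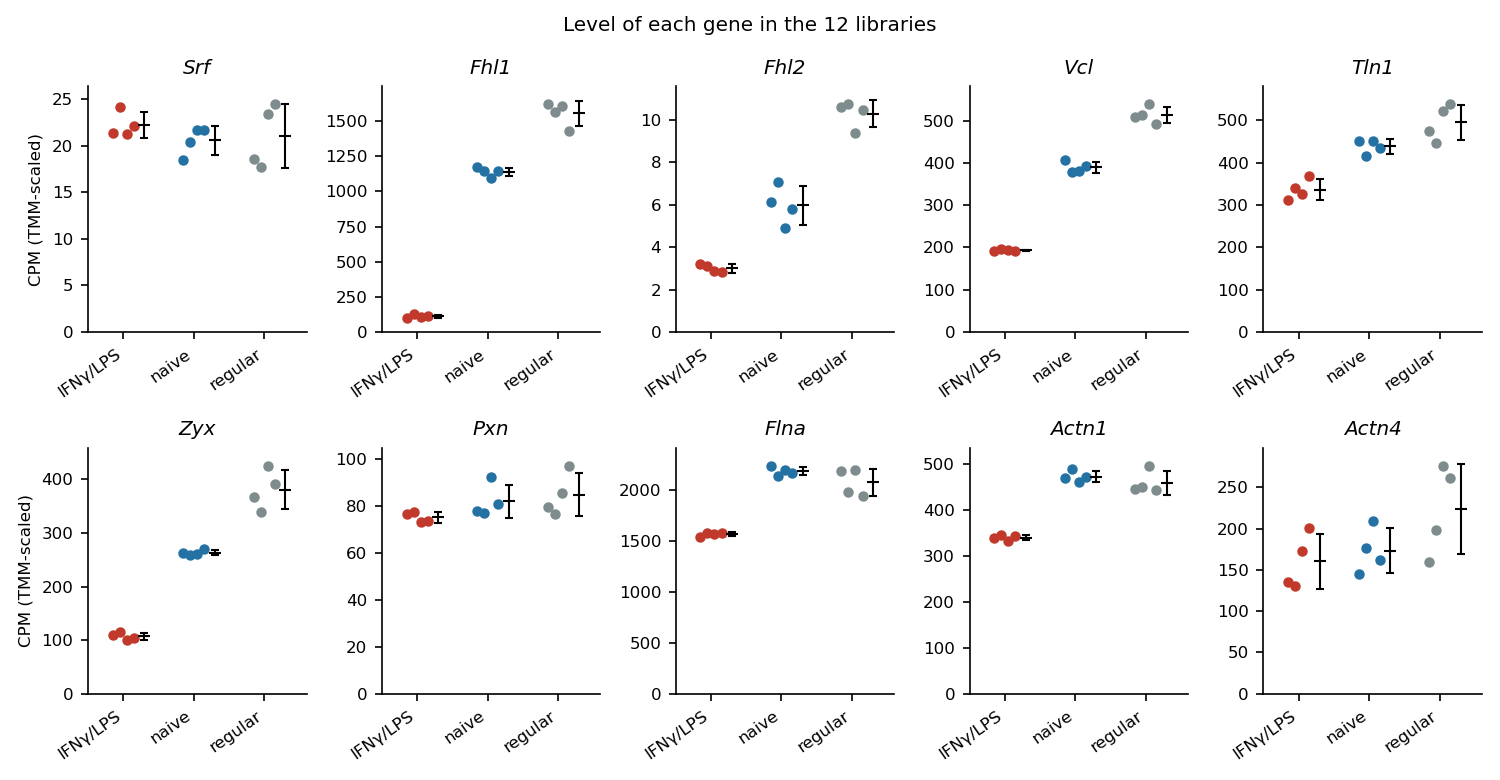
Level of each of the 10 genes in CPM (TMM-scaled, linear axis from 0) by group; points are the 4 libraries and black bars the mean ± SD. Fhl1, Fhl2, Vcl and Zyx are lowest in IFNγ/LPS CM and highest in regular medium with no overlap, Flna and Actn1 are low only in IFNγ/LPS CM among the 3 groups, and the groups overlap for Srf, Pxn and Actn4.

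Marker genes of other cell types also differed between these libraries. In IFNγ/LPS CM against naive CM, 36.1% of all genes were higher and 35.8% lower. Of 12 macrophage markers 5 were tested and all 5 were higher in IFNγ/LPS CM. Their summed level was 891 to 1003 CPM in IFNγ/LPS CM, 19.7 to 21.5 CPM in naive CM and 13.2 to 15.5 CPM in regular medium, of which Mpeg1 alone held 874 CPM in IFNγ/LPS CM. The others tested were Csf1r at 4.62 CPM, Cd68 at 6.19 CPM, Cd14 at 42.9 CPM and Lyz2 at 0.472 CPM in IFNγ/LPS CM. In naive CM they stood at 0.203, 1.07, 18.7 and 0.0785 CPM. The markers not tested, Ptprc, Adgre1, Itgam, Spi1, Tyrobp, Fcer1g and Mrc1, averaged at most 0.0843 CPM in IFNγ/LPS CM. The 8 adventitial fibroblast markers, 3 higher and 4 lower, summed to 6832 to 7509 CPM, against 2062 to 2236 CPM in naive CM and 2019 to 2318 CPM in regular medium, mostly Dcn and Ly6a, and none was at 0. The 8 endothelial markers summed to at most 3.18 CPM in any library, with Tie1 and Cldn5 at 0 throughout. The part of these shifts in the results below was not tested, and in such bulk RNA fewer cells of a type and less RNA per cell cannot be told apart.

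Srf itself, the transcription factor, had 21.4, 24.2, 21.2 and 22.1 CPM in the IFNγ/LPS CM libraries, 18.5, 20.4, 21.7 and 21.7 CPM in the naive CM libraries, and 18.6, 17.7, 23.4 and 24.5 CPM in regular medium. The 3 groups overlapped, with the widest spread in regular medium. Its log2 fold change was 0.11 in IFNγ/LPS CM against naive CM (95% interval -0.11 to 0.33, edgeR adjusted p = 0.312), and with library totals in place of TMM scaling Srf was called lower (log2 fold change -0.28, edgeR adjusted p = 0.0127). That scaling moved the median of all genes to -0.38, below the value of Srf. Srf lies on chromosome 17 at 46548329 to 46556175 (GRCm38, GENCODE M21).

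The partners of serum response factor, a list of 6 genes, gave 3 lower, 1 higher and 2 that missed the test (median log2 fold change -0.16), where 35.8% of all genes were lower and 36.1% higher. With library totals 5 of the 6 were lower and none was higher, where 9371 of all 16140 genes were lower and 3279 higher. Myocd, the smooth muscle coactivator myocardin, stood at 0.914 ± 0.149 CPM in IFNγ/LPS CM and 5.03 ± 0.377 CPM in naive CM (SD, n = 4 each; log2 fold change -2.46, edgeR adjusted p = 4.56e-12). The myocardin-related factors, which carry the actin signal to Srf, fell less: Mrtfa to 17.5 ± 0.820 CPM, against 24.9 ± 2.41 CPM in naive CM (log2 fold change -0.50), and Mrtfb to 37.4 ± 3.64 CPM, against 49.8 ± 3.16 CPM in naive CM (log2 fold change -0.41). Of the ternary complex factors, Elk3 was called higher (111 ± 4.72 CPM against 80.3 ± 2.46 CPM in naive CM, log2 fold change 0.47), a call lost with library totals (0.08, edgeR adjusted p = 0.0957). Elk1 and Elk4 had log2 fold changes of 0.09 and 0.14 and did not pass (edgeR adjusted p = 0.141 and 0.179), but both were called lower with library totals (-0.30 and -0.25).

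Fhl1, a LIM-only protein of striated and smooth muscle that sits at actin structures, changed most. It had 102.99, 126, 103.3 and 117 CPM in the IFNγ/LPS CM libraries, against 1171, 1142, 1096 and 1144 CPM in the naive CM libraries. The lowest naive CM library was far above the highest IFNγ/LPS CM library. The log2 fold change was -3.34 (SE 0.065, edgeR adjusted p = 5.54e-19), lower than that of all but 2.41% of genes tested. Fhl1 lies on chromosome X at 56731787 to 56793346.

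Fhl2, a LIM-only protein that binds Srf and integrins and is itself a known Srf target, was the least abundant of the 10. It had 3.202, 3.13, 2.86 and 2.80 CPM in the IFNγ/LPS CM libraries, against 6.11, 7.07, 4.88 and 5.78 CPM in the naive CM libraries. The groups did not overlap although naive CM spread by 15.2% (coefficient of variation). The log2 fold change was -0.999 (SE 0.11, edgeR adjusted p = 1.26e-07). Fhl2 lies on chromosome 1 at 43123074 to 43196984.

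Among the adhesion linkers, Vcl (vinculin, which joins talin to actin) had 192, 196, 193 and 191 CPM in IFNγ/LPS CM, compared with 407, 379, 380 and 393 CPM in naive CM. The IFNγ/LPS CM libraries had a coefficient of variation of 1.17% and all lay far below naive CM (log2 fold change -1.01, SE 0.039, edgeR adjusted p = 1e-14). Vcl, on chromosome 14 at 20929398 to 21033676, shares 25.5% of its exonic bases with Ap3m1 on the other strand. Ap3m1 stood at 120 CPM in IFNγ/LPS CM and 95.4 CPM in naive CM, and the use of strand in counting is not given in the sources used here.

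Tln1 (talin 1, which activates integrins from inside) had 311, 339, 326 and 368 CPM in IFNγ/LPS CM, compared with 452, 415, 452 and 434 CPM in naive CM. No libraries overlapped, and the fall was modest (log2 fold change -0.38, SE 0.060, edgeR adjusted p = 1.52e-05). Zyx (zyxin, a scaffold that moves to strained actin bundles) had 109, 115, 100.3 and 103.8 CPM in IFNγ/LPS CM, compared with 263, 260, 260 and 270 CPM in naive CM. Its log2 fold change was -1.30 (SE 0.059, edgeR adjusted p = 4.72e-13), next to Fhl1 among the 10, and its window held no perfect CArG box. Tln1 lies on chromosome 4 at 43531519 to 43562691 and Zyx on chromosome 6 at 42349630 to 42360213.

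Pxn (paxillin, a docking scaffold for focal adhesion kinase) had 76.6, 77.3, 73.1 and 73.4 CPM in IFNγ/LPS CM, compared with 77.8, 77.1, 92.3 and 81.0 CPM in naive CM. The libraries overlapped, and the gene did not pass (log2 fold change -0.13, 95% interval -0.28 to 0.03, edgeR adjusted p = 0.121). It was called lower when only these 2 groups were fitted (edgeR adjusted p = 0.0265), without regular medium replicate 4 (edgeR adjusted p = 0.0354) and with library totals (log2 fold change -0.51, edgeR adjusted p = 1.78e-06). Pxn lies on chromosome 5 at 115506676 to 115555987.

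Of the actin crosslinkers, Flna (filamin A, which also binds integrin tails) had 1540, 1581, 1567 and 1583 CPM in IFNγ/LPS CM, compared with 2240, 2141, 2197 and 2167 CPM in naive CM. The groups were tight and apart (log2 fold change -0.48, SE 0.044, edgeR adjusted p = 7.86e-09). Actn1 (alpha-actinin 1, found in actin bundles and at adhesions) had 337, 344, 331 and 343 CPM in IFNγ/LPS CM, compared with 469, 489, 459 and 470 CPM in naive CM. Its fall was of nearly the same size (log2 fold change -0.48, SE 0.041, edgeR adjusted p = 3.35e-09). Flna lies on chromosome X at 74223461 to 74249820 and Actn1 on chromosome 12 at 80167547 to 80260371.

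Actn4 (alpha-actinin 4, its close relative with roles in migration) had 136, 130, 173 and 201 CPM in IFNγ/LPS CM, compared with 145, 177, 209 and 162 CPM in naive CM. It varied more between libraries than any other of the 10, by 20.9% in IFNγ/LPS CM, 15.6% in naive CM and 24.4% in regular medium (coefficients of variation). Its log2 fold change of -0.11 had a 95% interval of -0.59 to 0.36 (edgeR adjusted p = 0.653), so a fall as large as that of Actn1 lies within it. Actn4 lies on chromosome 7 at 28893248 to 28962340. Actn1 and Actn4 are close paralogs, and how reads that fit both were divided is not known beyond the use of Salmon.

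**Figure D2:**
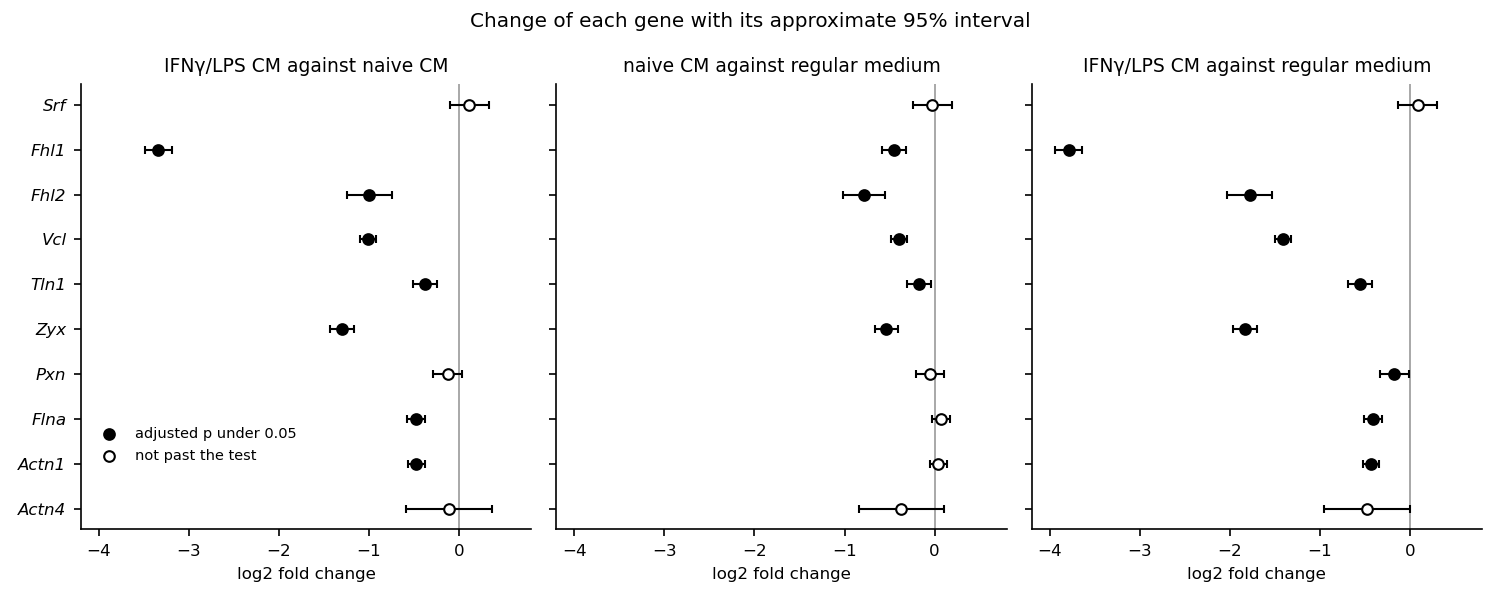
Log2 fold change of each gene in the 3 comparisons with approximate 95% intervals; filled points passed an adjusted p of 0.05. Fhl1 lies farthest left in the panels with IFNγ/LPS CM, at -3.34 and -3.79, and Srf stays near 0 in all 3 panels.

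Naive CM against regular medium asks what medium of resting macrophages, with its low serum, did on its own. In it 5 of the 10 genes fell (Vcl, Zyx, Fhl1, Fhl2 and Tln1), none rose and 5 did not pass, against 16.4% of all genes called lower and 34.7% called in either direction; none was 2-fold lower, as were 0.948% of all genes. The median log2 fold change of the 10 was -0.27, against -0.02 for all genes tested. Naive CM lay below regular medium in all libraries for 4 of the 10, against 15.5% of all genes (17.2% lay above and 32.7% did not overlap), and Tln1 overlapped. The macrophage products differ between these groups, and serum, starvation and M-CSF may differ as well. Their parts cannot be told apart.

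Fhl2 fell most, to 5.96 ± 0.906 CPM in naive CM, against 10.6, 10.7, 9.36 and 10.5 CPM in the regular medium libraries (log2 fold change -0.78, SE 0.10, edgeR adjusted p = 7.89e-06). Only 2.78% of genes tested had a lower value. Zyx stood at 263 ± 4.61 CPM in naive CM, against 367, 340, 426 and 391 CPM in regular medium (log2 fold change -0.53, edgeR adjusted p = 1.12e-06). Fhl1 stood at 1138 ± 30.9 CPM in naive CM, against 1620, 1565, 1609 and 1429 CPM in regular medium (log2 fold change -0.45, edgeR adjusted p = 8.95e-06). Vcl stood at 389 ± 13.1 CPM in naive CM, against 509, 512, 539 and 492 CPM in regular medium (log2 fold change -0.40, edgeR adjusted p = 1.81e-07). For these 4 genes regular medium was thus above naive CM in every library, with falls of 1.32- to 1.72-fold.

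Tln1 had 438 ± 17.6 CPM in naive CM, against 474, 446, 521 and 538 CPM in regular medium (log2 fold change -0.18, edgeR adjusted p = 0.0293). This call was lost without naive CM replicate 2 or 4 or regular medium replicate 3 or 4 (edgeR adjusted p = 0.0686 to 0.0934) and when only these 2 groups were fitted (edgeR adjusted p = 0.0520). The crosslinkers did not pass: Flna had 2186 ± 42.2 CPM in naive CM against 2078 ± 132 CPM in regular medium (log2 fold change 0.07, 95% interval -0.03 to 0.17), and Actn1 had 472 ± 12.3 CPM against 458 ± 25.3 CPM in regular medium (0.04, -0.05 to 0.14). Actn4 was at 160, 198, 276 and 261 CPM in regular medium (log2 fold change -0.37, 95% interval -0.84 to 0.11), overlapping naive CM. Srf and Pxn had log2 fold changes of -0.03 and -0.05 (edgeR adjusted p = 0.863 and 0.641).

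IFNγ/LPS CM against regular medium uses libraries of both comparisons above, so its values are not a separate line of evidence. In it 8 of the 10 genes were lower, none was higher, and Srf and Actn4 did not pass, against 36.4% of all genes called lower and 71.8% called in either direction. Fhl1 was 13.8-fold lower (log2 fold change -3.79), Zyx 3.56-fold (-1.83), Fhl2 3.44-fold (-1.78) and Vcl 2.66-fold (-1.41). Tln1, Actn1 and Flna were lower by log2 fold changes of -0.56, -0.43 and -0.41. All 7 were called with an edgeR adjusted p of 1.44e-07 or less, and none of their libraries overlapped between the groups, against 32.7% of all genes lower and 32.5% higher without overlap (65.2% in all). Of the 10, 4 were at least 2-fold lower, against 14.4% of all genes. Pxn was called by a narrow margin (log2 fold change -0.17, edgeR adjusted p = 0.0371) and lost the call without naive CM replicate 1, IFNγ/LPS CM replicate 1, 3 or 4, or regular medium replicate 3 or 4 (edgeR adjusted p = 0.0527 to 0.112). Actn4 missed it (log2 fold change -0.48, edgeR adjusted p = 0.0646) but passed in the DESeq2 Wald test (DESeq2 adjusted p = 0.0324), in limma-voom (limma adjusted p = 0.0233), with library totals (edgeR adjusted p = 0.00356), with replicate numbers added as blocks (edgeR adjusted p = 0.0117), without IFNγ/LPS CM replicate 4 (edgeR adjusted p = 0.0335) and without regular medium replicate 1 (edgeR adjusted p = 0.0198).

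Levels were compared between genes as CPM per kilobase of merged exons. In IFNγ/LPS CM the order was Flna (167 ± 2.07), Actn1 (61.3 ± 1.06), Tln1 (34.3 ± 2.47), Fhl1 (30.3 ± 3.05), Actn4 (26.1 ± 5.46), Vcl (23.5 ± 0.276), Zyx (19.9 ± 1.22), Pxn (9.17 ± 0.263), Srf (7.68 ± 0.473) and Fhl2 (1.58 ± 0.104 CPM per kilobase; mean ± SD, n = 4). The ranges of Tln1 and Fhl1, of Fhl1 and Actn4, and of Actn4 and Vcl overlapped. Within each library Tln1 was above Fhl1. Fhl1 and Actn4, and Actn4 and Vcl, changed order between libraries and were not separated. In naive CM the order opened with Fhl1 (307 ± 8.32) and Flna (233 ± 4.48), and in regular medium likewise with Fhl1 (419 ± 23.6) and Flna (221.1 ± 13.99 CPM per kilobase). Fhl1 ranked 1577 among 13174 tested protein-coding genes in IFNγ/LPS CM, 89 in naive CM and 55 in regular medium. In naive CM the ranges of Zyx and Vcl overlapped, at 48.8 ± 0.855 and 47.5 ± 1.60 CPM per kilobase, and their order changed between libraries. In regular medium the ranges overlapped too, at 70.7 ± 6.75 and 62.6 ± 2.37, but Zyx was above Vcl within each library. In IFNγ/LPS CM Zyx was below Vcl in every library. Pxn, Srf and Fhl2 were the lowest in all 3 groups, in that order. With the mean length of coding transcripts in place of merged exons these 3 kept their places and Fhl1 was still highest outside IFNγ/LPS CM. Tln1 moved up, from place 3 to place 2 in IFNγ/LPS CM, from place 6 to 3 in naive CM and from place 6 to 4 in regular medium. Actn1 moved down, from place 2 to 3, from 3 to 5 and from 3 to 6 in the same groups. The contrast of Zyx and Vcl depended on the length too. With the coding transcript length Zyx averaged 156 against 136 for Vcl in naive CM and 227 against 180 in regular medium. In IFNγ/LPS CM they were close, at 63.7 and 67.5 CPM per kilobase.

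**Figure D3:**
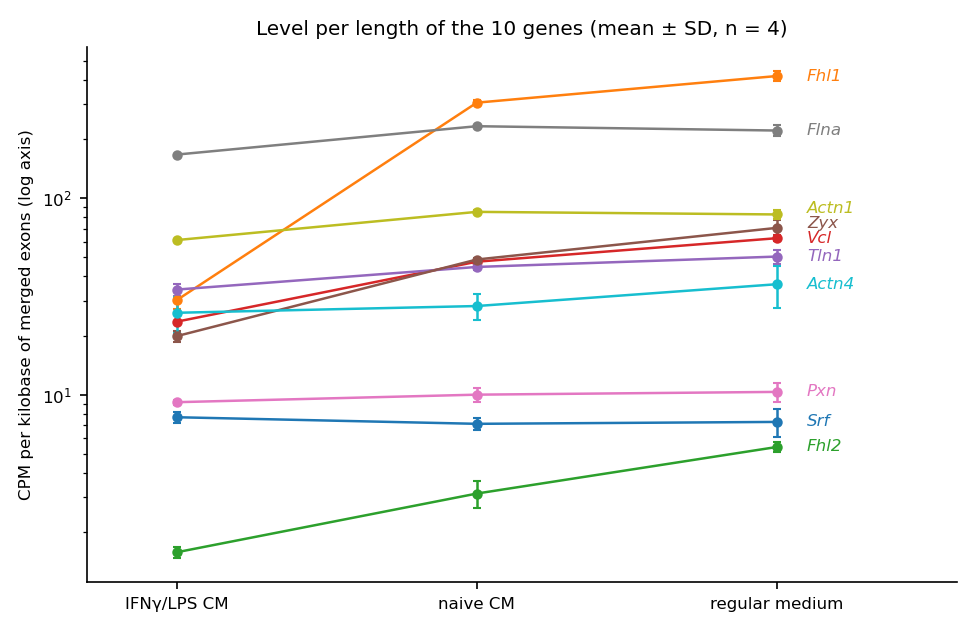
Mean level per kilobase of merged exons (log axis; error bars are SD, n = 4 libraries) of the 10 genes in IFNγ/LPS CM, naive CM and regular medium. Fhl1 lies in the middle of the 10 in IFNγ/LPS CM, at 30.3 CPM per kilobase, and at the top in naive CM, at 307 CPM per kilobase, while Pxn and Srf run nearly level.

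Ratios of paralogs within a library do not depend on how libraries are scaled. They are ratios of estimated counts, not per length, and were compared between groups with an exact two-sided permutation test, for which 4 against 4 libraries allow no p below 0.0286, with adjustment over 12 tests, of which 9 are given. The Tln1 to Tln2 ratio was 33.7 to 37.6 in IFNγ/LPS CM, 8.39 to 9.06 in naive CM and 10.8 to 13.1 in regular medium, without overlap in any comparison (exact p = 0.0286, adjusted p = 0.049 in each). Tln2, the second talin, fell to 9.58 ± 0.909 CPM in IFNγ/LPS CM, compared with 50.3 ± 1.93 CPM in naive CM (log2 fold change -2.39, edgeR adjusted p = 2.01e-17).

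The Fhl1 to Fhl2 ratio was 32.2 to 41.9 in IFNγ/LPS CM, 162 to 225 in naive CM and 137 to 172 in regular medium. IFNγ/LPS CM differed from both others (exact p = 0.0286, adjusted p = 0.049 in each), so Fhl1 fell more than Fhl2 there, whereas naive CM and regular medium overlapped (exact p = 0.0571, adjusted p = 0.0856). The Actn1 to Actn4 ratio was 1.71 to 2.64 in IFNγ/LPS CM, 2.20 to 3.23 in naive CM and 1.69 to 2.78 in regular medium, overlapping throughout (adjusted p = 0.172 to 0.800 in the exact permutation test). Of the other paralogs, Flnc (filamin C) and Ctnna1 (alpha-catenin, a vinculin relative at cell junctions) fell in IFNγ/LPS CM against naive CM by log2 fold changes of -0.59 and -0.69. Fhl3 was called higher at 14.5 ± 1.75 CPM against 10.1 ± 0.801 CPM in naive CM (log2 fold change 0.53), but not with library totals (0.14, edgeR adjusted p = 0.191). Actn2, an alpha-actinin of striated muscle, had no count in IFNγ/LPS CM and 35 counts in naive CM, at least 8.26-fold lower than naive CM when the group at 0 is set at 3 counts, and Fhl4 did not pass (edgeR adjusted p = 0.233).

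**Figure D4:**
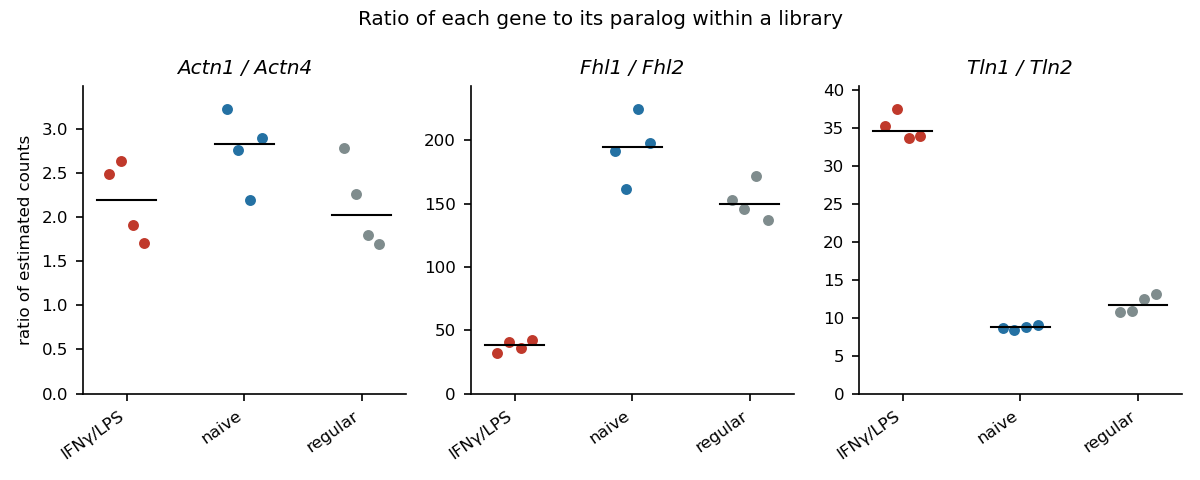
Ratio of estimated counts of 3 gene pairs in each library (points; linear axes from 0) with the median per group (line). The Tln1 to Tln2 ratio lies above 33.7 in IFNγ/LPS CM and below 13.1 elsewhere.

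The other genes of the pathway were followed in 3 further lists. Of 20 cytoskeletal genes linked to serum response factor, 15 fell, 4 rose and 1 missed the test in IFNγ/LPS CM against naive CM (median log2 fold change -0.94; all genes 0.00), where 35.8% of all genes were lower and 36.1% higher. With library totals 17 fell, 1 rose and 2 missed it, where 9371 of all 16140 genes were lower and 3279 higher. The 4 largest falls at 5 CPM or more were Tagln (transgelin, 78 counts and 2217 counts in naive CM, 20.1-fold lower, with 16.1 to 25.6 as its 95% interval from counting error), Cald1 (caldesmon, -1.94), Tpm1 (tropomyosin 1, -1.63) and Cnn2 (calponin 2, -1.58). Tagln2 rose by a log2 fold change of 1.48 to 360 ± 20.2 CPM, against 129 ± 3.73 CPM in naive CM. The smaller values of Tpm4 (0.44), Wdr1 (0.37) and Tpm3 (0.13) depended on the scaling: with library totals Tpm4 and Wdr1 were at 0.06 and -0.01 and not called, and Tpm3 was called lower at -0.26. In naive CM against regular medium 4 of the 20 fell, 7 rose and 9 missed the test (median 0.04), where 16.4% of all genes were lower and 18.3% higher. Tagln and Cald1 fell in that comparison too (log2 fold changes -1.55 and -0.83), and Tpm1 rose (0.18).

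Of 40 other focal adhesion adaptors and actin linkers tested, 18 fell, 13 rose and 9 missed the test in IFNγ/LPS CM against naive CM (median log2 fold change -0.10), against 35.8% lower and 36.1% higher among all genes. With library totals 28 fell, 10 rose and 2 missed it, where 9371 of all 16140 genes were lower and 3279 higher. The even split of the list thus depends on the scaling, as does that of all genes. Among those without overlap that reached 5 CPM in 1 of the groups, the largest falls were Evl, an actin-elongating protein of the Ena/VASP family, at 4.90 ± 0.318 CPM against 34.7 ± 0.486 CPM in naive CM (log2 fold change -2.82), Pdlim2 (-2.69), Sorbs3 (vinexin, a vinculin partner, -2.38) and Tns1 (tensin 1, -1.82). By the same rule the largest rises were Enah, a relative of Evl, at 12.9 ± 0.753 CPM against 5.29 ± 0.495 CPM in naive CM (1.28), Fermt2 (kindlin-2, which activates integrins with talin, 1.09), the adaptor Crkl (0.83) and Pdlim7 (0.77). In naive CM against regular medium 16 fell, 3 rose and 21 did not pass (median -0.09), against 16.4% of all genes lower and 18.3% higher.

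Of 10 immediate early genes linked to serum response factor, 6 rose, 3 fell and 1 missed the test in IFNγ/LPS CM against naive CM (median log2 fold change 0.57), where 36.1% of all genes were higher and 35.8% lower. With library totals 4 rose, 4 fell and 2 missed it, where 9371 of all 16140 genes were lower and 3279 higher. Mcl1, at 0.11 with TMM scaling, was called lower at -0.28 with library totals. Junb, an AP-1 subunit, stood at 52.3 ± 9.82 CPM against 6.19 ± 0.619 CPM in naive CM (3.08) and Fos at 6.61 ± 0.789 CPM against 1.59 ± 0.121 CPM in naive CM (2.06). Ier2 rose by 0.76, a call lost with library totals (0.37, edgeR adjusted p = 0.217). Dusp1, a phosphatase that switches off MAP kinases, fell to 52.7 ± 4.57 CPM, against 128 ± 9.00 CPM in naive CM (-1.28), and the matricellular Ccn1 fell by a log2 fold change of -0.93. In naive CM against regular medium 1 rose (Ccn1, 0.45), 1 fell (Egr1, -0.61, named like Mcl1 after its value was seen) and 8 did not pass, where 18.3% of all genes were higher and 16.4% lower.

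**Figure D5:**
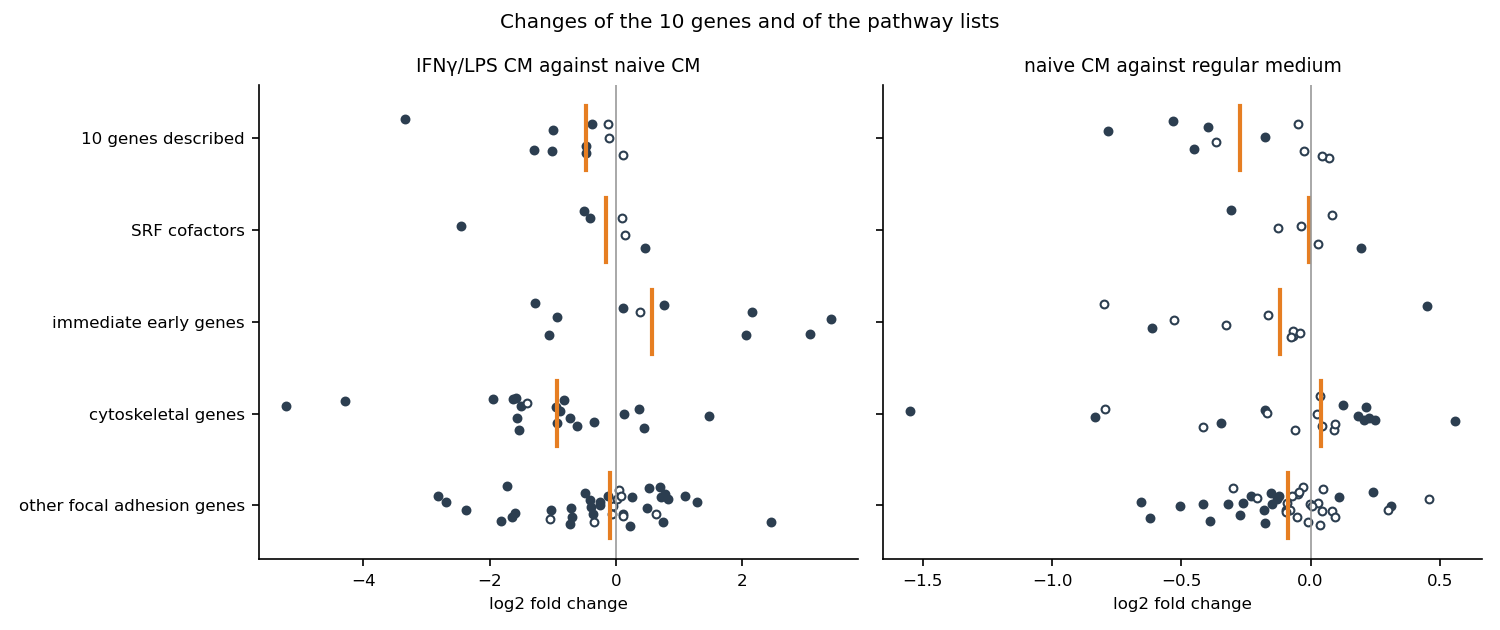
Log2 fold changes of the 10 genes and of 4 lists, the partners of serum response factor included (1 point per gene; filled, adjusted p under 0.05; orange line, median) in IFNγ/LPS CM against naive CM and in naive CM against regular medium. The cytoskeletal genes lie mostly to the left in the left panel, at a median of -0.94, and the immediate early genes have a median of 0.57.

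Perfect CArG boxes were also found in the windows of 4 of 16 cytoskeletal genes (Actg1, Cnn2, Filip1l and Myl9), 2 of 31 adaptors (Fermt2 and Trip6) and 1 of 8 immediate early genes (Egr2), counting list members with an entry. Genes with a box did not all move alike in IFNγ/LPS CM against naive CM: Actg1 (log2 fold change -0.94), Cnn2 (-1.58) and Filip1l (-0.72) fell, Myl9 had 6 counts against 337 counts in naive CM, Fermt2 (1.09) rose, and Egr2 had 389 counts against 51 counts in naive CM. Trip6 was called higher (0.22) but lower with library totals (-0.16). Those named here beyond the rule for named genes were named for their box.

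Over the 12 libraries, 4 of the 5 genes whose log2 CPM ran most like Vcl among 9149 genes at 10 CPM or more were Pmp22, Tmtc1, Stim1 and Cald1 (Pearson r of 0.997 to 0.999). These 4 share the step-like order of Vcl; Pmp22, for instance, averaged 94.5 CPM in IFNγ/LPS CM, 318 CPM in naive CM and 486 CPM in regular medium. The nearest to Srf were Lrrc59, Pcnx3, Col1a1, Rpl29 and Slc39a13 (r of 0.849 to 0.909); Lrrc59 averaged 107 CPM in IFNγ/LPS CM, 97.8 CPM in naive CM and 102.4 CPM in regular medium. The 12 points share their libraries and scaling.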

How the data were processed

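The values are estimated counts of each gene, which the authors deposited as whole numbers in 1 column per library. Salmon 1.10.1 and the mm10 build are named in the submitters' processing notes. The sources used here do not give the annotation, the use of strand or how transcripts were summed to genes. Libraries were made with a stranded mRNA kit, per the labels' protocols. Of 55822 identifiers 51344 (92%) matched a GENCODE M21 symbol without the version. Coordinates are GRCm38, the same build as mm10, and promoter windows are RefSeq's on GRCm38.p6.

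Columns named M0 and M1 were read as naive and IFNγ/LPS CM by the usual meaning of these names. In R 4.3.3, edgeR 4.0.16 filterByExpr kept 16140 genes, and TMM scaling gave mean factors of 0.836 in IFNγ/LPS CM, 1.09 in naive CM and 1.09 in regular medium. The quasi-likelihood F-test (robust, two-sided) was fitted to all 12 libraries with the group as factor and 9 residual degrees of freedom, with Benjamini-Hochberg adjustment over all genes tested and a threshold of 0.05. The SE is the size of the log2 fold change over the square root of F, and 95% intervals use 9 degrees of freedom; both are approximate. Counting intervals are exact and cover counting error only. The fit was tested on simulated data with known changes. Alternatives used DESeq2 1.42.0 and limma 3.58.1.

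Members, lists and naming rule were chosen with earlier results of these data known. Named were the 10 genes, all tested partners and paralogs, and up to 4 rises and 4 falls per other list in IFNγ/LPS CM against naive CM, called, without overlap and 5 CPM or more in the group with more, and the 5 genes nearest to Srf and to Vcl.
Alternatives were other scalings, filters and tests, fits of only the groups compared, a replicate block and each library left out. Some results under this rule are not reported here.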

Additional observations from a re-analysis of the deposited data

Results flagged for a closer look

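Single libraries far from the other 3 of their group were sought in 61 named genes, or 183 groups of 4, with Dixon's test, which chance alone passes in about 1 of 20 groups; 8 passed. Of the 10 genes described this touched Actn1 alone, at 495 CPM in regular medium replicate 3 and 442 to 449 CPM in the other 3. Junb stood at 24.4 CPM in regular medium replicate 4 and at 5.57 to 7.35 CPM in the others, and Stim1 at 81.6 CPM in replicate 3 of that group and at 75.7 to 76.0 CPM in the others. Fos was at 7.79 CPM in IFNγ/LPS CM replicate 2 (others 6.11 to 6.34 CPM) and Tpm4 at 825 CPM in IFNγ/LPS CM replicate 4 (others 884 to 890 CPM). In naive CM, Rock2 was at 447 CPM in replicate 1 (others 411 to 416 CPM), Tpm4 at 652 CPM in replicate 4 (others 637 to 638 CPM) and Fermt2 at 111 CPM in replicate 3 (others 120 to 121 CPM).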

How the results depend on the processing

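The 20 alternatives were other scalings, filters, tests, samples in the fit, the replicate number as a block and each library left out. Over them the 10 genes gave 600 values. Of these, 578 kept their side of the threshold, 11 lost a call, 9 gained one with the same sign and 2 gained one with the sign turned. Values called in neither fit count among the 578 even where their sign turned. In naive CM against regular medium, Srf ran from -0.10 to 0.06 and Pxn from -0.11 to 0.02, never called. The 2 turned calls were Srf with library totals, at -0.28 in IFNγ/LPS CM against naive CM and -0.30 in IFNγ/LPS CM against regular medium. The other lost and gained calls concern Pxn, Tln1 and Actn4 and stand beside their results. The number of the 10 genes called was 7 to 9 in IFNγ/LPS CM against naive CM, 4 to 5 in naive CM against regular medium and 7 to 10 in IFNγ/LPS CM against regular medium; with 1 library left out the ranges were 7 to 8, 4 to 5 and 7 to 9. With library totals, calls over all genes in the first comparison split into 3279 higher and 9371 lower, in place of 5830 and 5781, and in IFNγ/LPS CM against regular medium into 3279 and 9597, in place of 5712 and 5882. Libraries of the same number in the labels deviated from their group means with correlations of -0.063 to 0.066 over 12 pairs, so the numbers were not taken as pairs; with the replicate number as a block, 7, 5 and 9 of the 10 genes were called in the 3 comparisons. Fhl2 had the fewest counts of the 10 genes, 425 in IFNγ/LPS CM, 1224 in naive CM and 2135 in regular medium, and kept its calls in all 20 alternatives.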

Other observations

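The cytoplasmic actins, the proteins that focal adhesions hold and that are often used as controls, were lower in IFNγ/LPS CM; they were picked after their values were seen. Actb stood at 2254 ± 18.7 CPM in IFNγ/LPS CM, compared with 3998 ± 205 CPM in naive CM and 3927 ± 170 CPM in regular medium (SD, n = 4 each; log2 fold change -0.83 against naive CM, edgeR adjusted p = 2.62e-12). Actg1 stood at 632 ± 4.55 CPM in IFNγ/LPS CM, compared with 1217 ± 45.6 CPM in naive CM and 1055 ± 48.2 CPM in regular medium (log2 fold change -0.94 against naive CM, edgeR adjusted p = 9.47e-14). In naive CM against regular medium Actg1 was higher (log2 fold change 0.21, edgeR adjusted p = 0.000642) and Actb did not pass (0.03, edgeR adjusted p = 0.697).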
